A study of Mus musculus with 8 samples.

Results

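The Notch receptors, ligands and targets described here are 10 mouse genes chosen by symbol: the receptors Notch1, Notch2, Notch3 and Notch4, the ligands Jag1 and Jag2, and the target genes Hes1, Hey1, Hey2 and Heyl. Each symbol was found once among the 22274 genes of the count table, and all 10 genes passed the filter on low counts, which left 13533 genes for testing. RNA was sequenced from primary mouse cardiac fibroblasts of the heart. All 8 libraries came from cells that had received TGF-β, the cytokine that turns fibroblasts into myofibroblasts, for 24 h at a dose of 5 ng/ml. The 4 libraries labelled GFP carried the control vector and the 4 labelled OEIRF7 a vector for IRF7, a transcription factor of the interferon response, so there was no group without virus or without TGF-β. The study describes this vector as an adenovirus and the deposited design as an adeno-associated virus, and the study names 3 biological replicates where the labels give 4 libraries per group. Nothing in the sources used here says that the libraries came from separate cultures or animals, so the p-values measure the spread between these libraries.

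Notch proteins are receptors on the cell surface that bind Jagged or Delta-like ligands on a neighbouring cell. Binding leads to cleavage of the receptor by ADAM proteases and then by γ-secretase, and the released intracellular domain enters the nucleus and joins RBPJ and Mastermind proteins at target genes, among them those of the HES and HEY families of transcriptional repressors. In the heart and its vessels, Notch1 and Notch4 are best known from endothelial cells and Notch3 from the mural cells around vessels, while Jag1 is made by several cell types, fibroblasts included.

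The depth was close between libraries, with 24888589 to 27095611 counts in GFP and 24454801 to 28658826 in OEIRF7. Mouse Irf7 itself had 2272 to 3680 counts in GFP and 380 to 421 in OEIRF7, a fall that goes against the labels if the vector carried the mouse gene and does not check them if it carried the human one, and the study's reagent list has the human gene in its adenoviral vector and the mouse gene in its adeno-associated one. Directions are therefore given between the libraries as labelled. The 10 fibroblast markers were all tested and summed to 13565 to 14006 CPM (counts scaled to the library size after TMM normalisation) in GFP and 12609 to 13609 in OEIRF7, with 2 higher and 5 lower, among these Tcf21, a fibroblast transcription factor gene (58.3 and 23.1 CPM, log2 fold change -1.33), named after its values had been seen. Of 9 cardiomyocyte markers, 8 were too low to test.

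The promoters of 3 genes whose transcripts differed between the groups are shown, as examples of windows with motifs of Notch-related or AP-1 factors. Jag1 and Jag2 also differed and held such motifs, but their windows are not shown. RefSeq sequence of GRCm38.p6, from 250 bases before to 50 bases from the annotated start, was at hand for 7 of the 10 genes, all but Hes1, Hey1 and Heyl. Each window shown is printed 5′ to 3′ on the strand of the gene, and the capitals mark motif matches. Hey2 lies on the minus strand of chr10:30842734-30843033, Notch3 on the minus strand of chr17:32166841-32167140 and Notch4 on the plus strand of chr17:34564045-34564344.
Hey2: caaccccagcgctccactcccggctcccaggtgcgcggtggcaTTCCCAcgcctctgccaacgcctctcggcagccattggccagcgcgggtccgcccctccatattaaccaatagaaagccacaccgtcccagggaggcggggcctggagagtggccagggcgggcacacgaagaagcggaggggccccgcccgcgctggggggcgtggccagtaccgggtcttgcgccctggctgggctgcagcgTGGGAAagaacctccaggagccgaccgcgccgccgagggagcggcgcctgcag
Notch3: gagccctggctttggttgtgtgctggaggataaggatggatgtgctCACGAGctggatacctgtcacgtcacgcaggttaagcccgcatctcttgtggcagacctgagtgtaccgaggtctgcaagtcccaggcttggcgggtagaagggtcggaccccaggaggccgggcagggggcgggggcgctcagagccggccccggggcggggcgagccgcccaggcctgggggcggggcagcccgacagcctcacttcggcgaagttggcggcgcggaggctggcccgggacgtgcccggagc
Notch4: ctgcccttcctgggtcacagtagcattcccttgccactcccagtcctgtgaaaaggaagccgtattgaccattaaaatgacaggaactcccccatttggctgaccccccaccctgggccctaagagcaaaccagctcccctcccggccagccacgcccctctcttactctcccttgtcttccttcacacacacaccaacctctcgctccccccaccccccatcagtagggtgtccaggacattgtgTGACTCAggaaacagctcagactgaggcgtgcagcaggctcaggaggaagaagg

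Both strands were searched for the RBPJ core TGGGAA, the HES and HEY site CACGNG, the core of elements bound by interferon regulatory factors (GAAA, then any 2 bases, then GAAA), and the AP-1 site TGANTCA, which was added after the promoters had been read. The Hey2 window held 2 RBPJ cores, which began at -207 and at -3 from the start, and no other of the 7 windows held any. At least 1 core was present in 25.6% of all 32851 windows, and the share with 2 was not counted. The HES and HEY site was found in Notch3 at -204, in Jag1 at -249 and -171, and also in the windows of Notch2 and Jag2. At least 1 such site was present in 27.5% of all windows. Notch4 held the AP-1 site TGACTCA at -4, a motif present in 7.81% of windows. The core of interferon regulatory factors, present in 3.44% of windows, was found in none of the 7. A match says only that these letters stand in the window.

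Of the 10 genes, 2 rose in OEIRF7, Notch1 and Notch4, and 7 fell: Notch3, Jag1, Jag2, Hes1, Hey1, Hey2 and Heyl. Genes were called at a threshold of 0.05 on the p adjusted by Benjamini-Hochberg over all genes tested in edgeR, whose quasi-likelihood test compared the groups. In the same test 29.0% of all genes were higher and 29.9% lower, so a count of 2 higher lies near that share and 7 lower lies above it. Past a change of 1.5-fold as well were the 2 higher genes, against 9.26% of all genes, and 6 of the lower ones, all but Hes1, against 9.64%. In CPM the groups did not overlap for 7 of the 10 genes, against 53.8% of all genes. The median log2 fold change was -0.69 over the 10 genes and 0.0015 over all genes tested. The median of the 10 genes is set by Hey1 (-0.76) and Jag2 (-0.63), which had low counts (10 to 30 and 16 to 35 per library). The calls of Jag2, Hes1 and Hey1 were close to the threshold. With DESeq2, without scaling beyond library size, and with limma on log2(FPKM + 1) or log2(FPKM + 0.1), 4 genes were lower and not 7, and 4 were lower also without GFP replicate 2, OEIRF7 replicate 1 or OEIRF7 replicate 2.

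**Figure D1:**
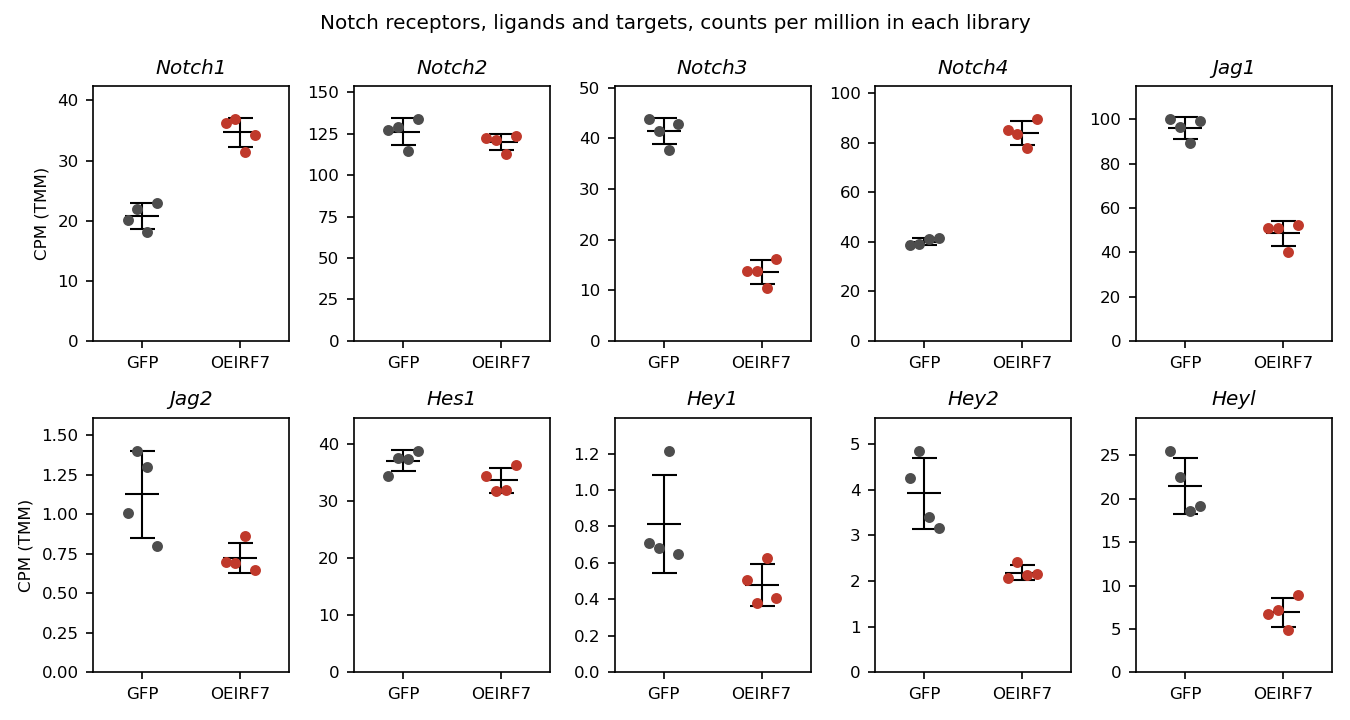
CPM after TMM scaling (vertical axes, each from 0) of the 10 genes in each of the 4 GFP and 4 OEIRF7 libraries (points), with the mean and SD of each group (bars). Notch1 and Notch4 sit higher in all OEIRF7 libraries, and Notch3, Jag1, Hey1, Hey2 and Heyl sit lower, while the groups overlap for Notch2, Jag2 and Hes1.

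Among the receptors, Notch4 had the largest rise and Notch3 the largest fall. Notch4 (chr17:34564268-34588503, plus strand of GRCm38) stood at 38.8, 39.0, 41.2 and 41.4 CPM in GFP replicates 1 to 4 and at 85.2, 83.4, 77.8 and 89.5 CPM in OEIRF7. Every OEIRF7 library was above every GFP library, and the spread within a group was small beside the gap. The means were 40.1 ± 1.40 (SD, n = 4) and 84.0 ± 4.84 CPM (SD, n = 4), with a log2 fold change of 1.07 (standard error, SE, 0.047, 95% interval 0.97 to 1.17, edgeR adjusted p = 1.5e-10).

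Notch3 lies on the same chromosome (chr17:32120820-32166852, minus strand) and went the other way. Its values were 43.7, 41.5, 37.7 and 42.7 CPM in GFP and 13.8, 13.8, 10.5 and 16.3 CPM in OEIRF7. The highest OEIRF7 library was well under the lowest GFP library. The mean fell from 41.4 ± 2.63 (SD, n = 4) to 13.6 ± 2.35 CPM (SD, n = 4), a log2 fold change of -1.61 (SE 0.095, 95% interval -1.81 to -1.40, edgeR adjusted p = 2.8e-09). An antisense gene, Gm17276, shares 488 exon bases with Notch3 and is not a gene of the table, and the strand setting of the counting is not given, so reads from it cannot be told apart from reads of Notch3.

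Notch1 (chr2:26457903-26516663, minus strand), the receptor best known from developing vessels and valves, had 20.1, 22.0, 18.2 and 23.0 CPM in GFP and 36.2, 36.9, 31.5 and 34.2 CPM in OEIRF7. The groups again stood apart. Its mean rose from 20.8 ± 2.11 (SD, n = 4) to 34.7 ± 2.42 CPM (SD, n = 4), a log2 fold change of 0.74 (SE 0.073, 95% interval 0.58 to 0.90, edgeR adjusted p = 6.9e-07). As with Notch3, 2 genes on the opposite strand that are not in the table share exon bases with Notch1, 1068 for 0610009E02Rik and 414 for Gm13568.

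Notch2 (chr3:98013527-98150361, plus strand), which shares 541 exon bases with the unlisted gene Gm42820 on its own strand, was the most abundant receptor in counts and did not pass the test. It had 127, 129, 115 and 134 CPM in GFP and 123, 121, 113 and 124 CPM in OEIRF7, and the groups overlapped. The log2 fold change was -0.07 (SE 0.047, edgeR adjusted p = 0.21), with a 95% interval from -0.17 to 0.03. Without GFP replicate 3, the lowest library of its group, it was -0.11 with an adjusted p of 0.033 from edgeR, the only one of 16 alternatives that passed, and the adjusted p ranged from 0.033 to 0.57 over them. For these receptors the exact two-sided permutation test gave p = 0.0286 for Notch1, Notch3 and Notch4, the smallest that 4 against 4 libraries allow, and p = 0.2857 for Notch2.

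The ligands were lower in OEIRF7, and nearly all of their signal came from Jag1. Jag1 (chr2:137081456-137116644, minus strand), the Jagged ligand made by fibroblasts and smooth muscle cells, had 99.98, 96.5, 89.1 and 99.3 CPM in GFP and 50.9, 50.8, 40.0 and 52.1 CPM in OEIRF7. All OEIRF7 libraries were below all GFP libraries, and OEIRF7 replicate 3 was the lowest of them. The mean fell from 96.2 ± 4.98 (SD, n = 4) to 48.5 ± 5.67 CPM (SD, n = 4), with a log2 fold change of -0.99 (SE 0.069, edgeR adjusted p = 1.7e-08).

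Jag2 (chr12:112907819-112929776, minus strand), the second Jagged ligand, was low, with 27, 35, 32 and 21 counts in GFP and 18, 20, 22 and 16 in OEIRF7. The groups overlapped, since the highest OEIRF7 library exceeded the lowest GFP library in CPM. Its log2 fold change was -0.63 (SE 0.26, 95% interval -1.18 to -0.08, edgeR adjusted p = 0.047), and the exact two-sided permutation test gave p = 0.0571. The call was lost in 12 of 16 alternatives, in which the adjusted p ranged up to 0.24. Among these were the fits without GFP replicates 1, 2 or 3 (log2 fold change -0.68, -0.51 and -0.56) and without OEIRF7 replicates 1, 2 or 4 (-0.61, -0.61 and -0.58), as well as the fit with the replicate number as a block (-0.63, adjusted p = 0.056). The deposited FPKM of Jag2, which run from 0.20 to 0.42 in GFP and from 0.13 to 0.42 in OEIRF7, order the libraries differently from the counts: OEIRF7 replicate 1 shares the highest FPKM with GFP replicate 2 although it has 18 counts.

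The target genes fell by very unequal amounts. Heyl (chr4:123233556-123249875, plus strand), a HEY repressor known from vascular smooth muscle, had 25.5, 22.6, 18.6 and 19.1 CPM in GFP and 6.78, 7.13, 4.91 and 8.96 CPM in OEIRF7. No OEIRF7 library reached 10 CPM, and no GFP library was below 18 CPM. The mean fell from 21.5 ± 3.23 (SD, n = 4) to 6.95 ± 1.66 CPM (SD, n = 4), a log2 fold change of -1.63 (SE 0.14, 95% interval -1.93 to -1.32, edgeR adjusted p = 1.7e-07). This change was of about the size of that of Notch3, and 0.946% of all genes tested had a log2 fold change as low as that of Heyl or lower.

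Hey2 (chr10:30832359-30842801, minus strand), the HEY repressor of ventricular muscle and arterial endothelium, whose promoter window holds the 2 RBPJ cores printed above, had 114, 121, 84 and 83 counts in GFP and 53, 70, 54 and 53 in OEIRF7. The GFP libraries fell into a higher and a lower pair, and both pairs were above all OEIRF7 libraries. In CPM the mean fell from 3.92 ± 0.776 (SD, n = 4) to 2.18 ± 0.157 (SD, n = 4), with a log2 fold change of -0.84 (SE 0.16, edgeR adjusted p = 0.00047).

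Hey1 (chr3:8663359-8667256, minus strand), a HEY repressor of developing vessels and atria, rested on 19, 17, 30 and 17 counts in GFP and 13, 11, 16 and 10 in OEIRF7. The groups did not overlap in CPM but did in FPKM, where the lowest GFP library and the highest OEIRF7 library were both at 0.26. The log2 fold change was -0.76 (SE 0.31, 95% interval -1.43 to -0.09, edgeR adjusted p = 0.049). It was lost in 11 of 16 alternatives, with adjusted p up to 0.20. With limma on log2(FPKM + 1) the difference on that scale was -0.15. Of the fits that left out a library, the one without GFP replicate 3, the highest, moved the value most, to -0.51 with an adjusted p of 0.20 from edgeR. It was also lost without GFP replicates 1 or 2 (-0.82 and -0.83) and without OEIRF7 replicates 1, 2 or 4 (-0.78, -0.65 and -0.69).

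Hes1 (chr16:30064384-30067796, plus strand), a repressor that other pathways besides Notch also induce, changed least of the targets. It had 34.4, 37.5, 37.4 and 38.7 CPM in GFP and 34.4, 31.8, 31.9 and 36.2 CPM in OEIRF7, and the groups overlapped. From 37.0 ± 1.84 (SD, n = 4) to 33.6 ± 2.14 CPM (SD, n = 4), the log2 fold change was -0.14 (SE 0.056, 95% interval -0.26 to -0.02, edgeR adjusted p = 0.041). In 10 of 16 alternatives it did not pass, with adjusted p up to 0.11. Among these were the fits without GFP replicates 2, 3 or 4 (-0.14, -0.14 and -0.12) and without OEIRF7 replicates 1, 2 or 3 (-0.15, -0.12 and -0.12). Exact two-sided permutation tests gave p = 0.0286 for Jag1, Hey1, Hey2 and Heyl and p = 0.0571 for Hes1.

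**Figure D2:**
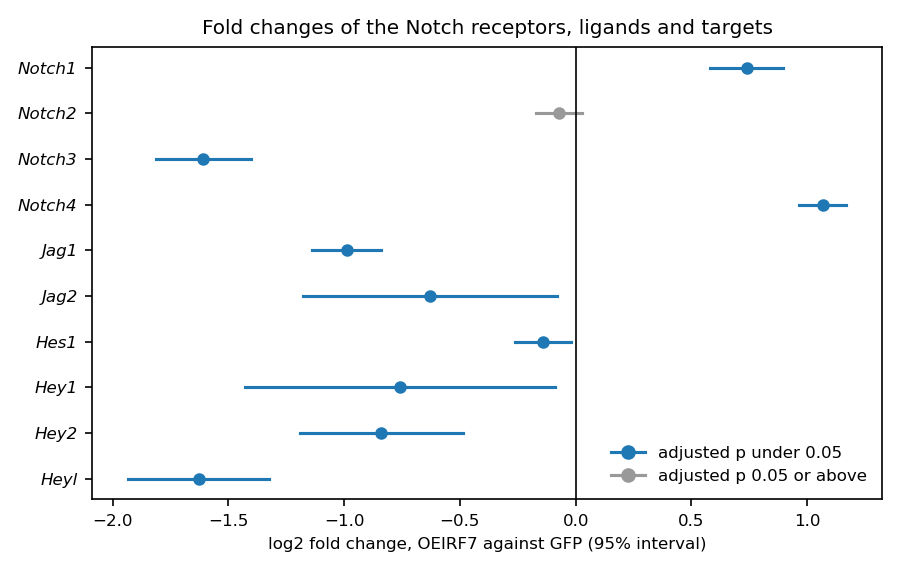
Log2 fold change of each of the 10 genes between OEIRF7 and GFP (horizontal axis, points) with its 95% interval from edgeR (lines), blue where the adjusted p was under 0.05 and grey otherwise. The values run from -1.63 for Heyl to 1.07 for Notch4, and the intervals of Jag2, Hey1 and Hes1 end close to 0.

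Several genes shared their lowest or highest library. OEIRF7 replicate 3 was the lowest of its group for 6 of the 10 genes, Notch1 to Notch4, Jag1 and Heyl, and OEIRF7 replicate 4 was the highest for 6 genes, among them Notch3, Notch4, Jag1 and Heyl. In GFP, replicate 3 was lowest for 5 genes, Notch1, Notch2, Notch3, Jag1 and Heyl. Leaving out any one library kept Notch1, Notch3, Notch4, Jag1, Hey2 and Heyl past the threshold in the same direction, as did the other 8 alternatives.

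Levels between genes can be compared only per length, in the deposited FPKM. In GFP the order by mean FPKM was Hes1 (25.0), Jag1 (17.0), Notch2 (11.9), Notch4 (6.03), Notch3 (5.12), Heyl (4.68), Notch1 (2.17), Hey2 (1.52), Hey1 (0.333) and Jag2 (0.323). In this order the ranges of Notch3 and Heyl overlapped, as did those of Hey1 and Jag2, and all other neighbours were apart. In OEIRF7 it was Hes1 (23.1), Notch4 (12.9), Notch2 (11.5), Jag1 (8.72), Notch1 (3.69), Notch3 (1.75), Heyl (1.55), Hey2 (0.865), Jag2 (0.215) and Hey1 (0.20). There Notch4 and Notch2 overlapped, as did Notch3 with Heyl and Jag2 with Hey1. Notch4 thus moved from the fourth place to the second and Notch3 from the fifth to the sixth, while Heyl stayed next to Notch3 in both groups.

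The summed FPKM of the 4 receptors was higher in OEIRF7 and those of the ligands and targets were lower. For the receptors it was 25.2 ± 1.18 (SD, n = 4) in GFP and 29.9 ± 1.84 (SD, n = 4) in OEIRF7, while the ligands went from 17.3 ± 0.812 to 8.93 ± 1.09 and the targets from 31.5 ± 0.763 to 25.7 ± 1.77. Each sum of FPKM was apart between the groups (exact two-sided permutation test, p = 0.0286). In CPM, which does not correct for gene length, the receptor sum overlapped, with 212 to 241 in GFP and 233 to 264 in OEIRF7, and the sums of the ligands and of the targets stayed apart. Within the receptors, Notch4 took 23.0%, 23.1%, 26.3% and 23.5% of the summed FPKM in GFP and 43.2%, 42.7%, 43.4% and 43.7% in OEIRF7. Notch3 took 21.3%, 20.2%, 19.8% and 19.9% in GFP and 5.69%, 5.77%, 4.81% and 6.92% in OEIRF7. The largest receptor share of FPKM was that of Notch2 in every GFP library, on average 47.2%, and that of Notch4 in every OEIRF7 library. In CPM, Notch2 stayed the largest in every OEIRF7 library, with 113 to 124 beside 77.8 to 89.5 for Notch4. The change of the largest receptor thus depends on the length correction. The mean share of Notch2 was 38.6% in OEIRF7, and that of Notch1 went from 8.58% to 12.3%.

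The ratio of Notch4 to Notch3 in FPKM, which puts the opposite changes into 1 value, was 1.08, 1.14, 1.33 and 1.18 in GFP and 7.58, 7.39, 9.03 and 6.32 in OEIRF7. The receptors were thus at nearly equal levels per length in GFP and far apart in OEIRF7, with mean ratios of 1.18 ± 0.107 (SD, n = 4) and 7.58 ± 1.12 (SD, n = 4). Among the targets, Hes1 made up 79.2% ± 3.0 (SD, n = 4) of the summed FPKM in GFP and 89.9% ± 0.915 (SD, n = 4) in OEIRF7, and Heyl 14.9% ± 2.38 and 5.97% ± 1.12. With CPM in place of FPKM, the difference between the groups grew from 10.6 to 19.2 percentage points for Hes1 and from -8.90 to -17.9 for Heyl. Jag1 held 98.1% of the ligand sum in GFP and 97.6% in OEIRF7. Of the 9 shares tested, those of the 4 receptors, Hes1 and Heyl had p = 0.0286 in the exact two-sided permutation test (adjusted over the 9 shares, 0.0429). This is the smallest p that 4 against 4 libraries allow. The shares of a pool are not separate results, since a larger share of a gene leaves less for the others. The share of Notch2 fell with a mean FPKM of 11.9 in GFP and 11.5 in OEIRF7, and that of Hes1 grew with 25.0 and 23.1. The shares of Hey2 (4.83% and 3.38%, permutation p = 0.0571, adjusted 0.0734), Hey1 (1.06% and 0.786%, permutation p = 0.2571, adjusted 0.2892) and Jag1 (permutation p = 0.6286, adjusted 0.6286) did not pass.

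**Figure D3:**
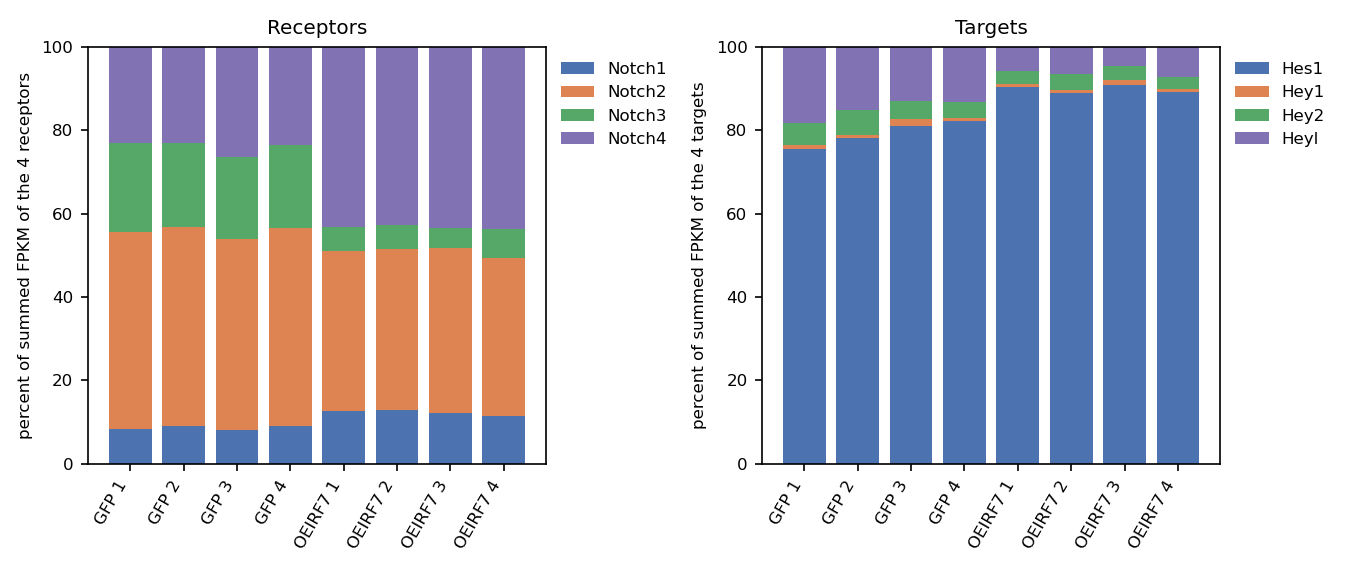
Share of each gene in the summed FPKM of the 4 receptors (left) and the 4 targets (right), in percent, in each library (bars from 0 to 100). The share of Notch4 grows from a mean of 23.95% in GFP to 43.2% in OEIRF7 while those of Notch3 and Notch2 shrink, and Hes1 grows from 79.2% to 89.9% of the targets as Heyl shrinks.

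Lists of the other parts of the pathway, of candidate targets and of 6 HEY relatives that respond to other signals were read as well. Together they held 76 further genes, of which 70 could be tested. Of these, 21 rose, 24 fell and 25 did not pass, a split close to that of all genes (29.0% higher and 29.9% lower), and their median log2 fold change was 0.0066. The Delta-like ligands and their relatives were low in both groups: of 5 genes 3 were tested and none passed, with Dll4 at 4.25 and 4.56 CPM in GFP and OEIRF7, Dll1 at 0.974 and 1.37 CPM and Dlk1 at 0.493 and 0.342 CPM, and with Dll3 and Dlk2 too low to test.

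Rbpj, the DNA-binding partner of the cleaved receptors, had 196, 173, 227 and 199 CPM in GFP and 383, 364, 499 and 342 CPM in OEIRF7. The groups did not overlap, and OEIRF7 replicate 3, the lowest library of its group for most of the Notch genes, was the highest for Rbpj. Its log2 fold change was 0.998 (SE 0.10, edgeR adjusted p = 7.9e-07). Among the 9 genes of the nuclear complex and its coactivators 2 rose and 2 fell. Beside Rbpj, these were Maml1 (log2 fold change 0.26), a Mastermind coactivator, its relative Maml2 (-0.55) and the acetyltransferase gene Kat2b (-0.91), each with an adjusted p under 0.05.

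The γ-secretase and protease genes that cleave the receptors changed little. Of 10, 4 rose and 4 fell, none past 1.5-fold. The γ-secretase subunits Ncstn (log2 fold change 0.31) and Psenen (0.21) rose, and Psen2 had -0.21, a call that passed in 6 of 16 alternatives. Of 5 genes that add sugars to the receptors, 1 fell, the fucosyltransferase gene Pofut1 (-0.43). In the 12 corepressor genes 5 rose and 4 fell, led by Tle2 (-1.11), a Groucho family corepressor, with Ctbp1 (-0.47), Ctbp2 (0.39) and Tle1 (0.34) after it. Of 15 genes of ligand and receptor endocytosis and turnover 5 rose and 3 fell. The Neuralized genes Neurl1a (1.51) and Neurl3 (1.13) and the Deltex gene Dtx2 (0.63) rose, with 12 to 52 counts per library behind Neurl1a. Dtx3 fell (-0.43), but not in the limma fits of FPKM, where the adjusted p reached 0.21 and the 14 other alternatives kept it.

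Other genes described as Notch targets, or of the HES family, did not move in 1 direction. Of 15, 11 were tested, with 4 higher and 5 lower. Acta2, the smooth muscle actin gene that marks myofibroblasts, fell by 1.83 on the log2 scale and Epas1, which codes for a hypoxia-inducible factor, by 1.38. Ccnd1, the cyclin D1 gene, fell by 0.47, and the growth regulator gene Myc rose by 0.82. Nrarp, which codes for a feedback inhibitor of Notch, had 0.378 and 0.559 CPM in GFP and OEIRF7 and did not pass (edgeR adjusted p = 0.25). Hes5 had no count in any of the 8 libraries, and Hes2, Hes3 and Hes7 were too low to test. Hes6, a HES family member, had 11.2 and 9.16 CPM (log2 fold change -0.29, edgeR adjusted p = 0.010). It and Nrarp were named after their values had been seen.

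Of 6 relatives of the HEY proteins that respond to other signals, 5 fell and 1 rose. Id4 (-1.79), Id3 (-1.07) and Id1 (-0.91), inhibitors of basic helix-loop-helix factors that respond to BMP and TGF-β signals, fell on the log2 scale, and Bhlhe40, a stress-responsive repressor, rose (1.06). The deposited table itself assigns 60 genes to the KEGG Notch signaling pathway, a list used after the data had been seen. Of these 55 were tested, with 15 higher, 20 lower and a median log2 fold change of 0.021. This list includes the 10 Notch genes themselves, so 2 of its higher and 7 of its lower calls are theirs.

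**Figure D4:**
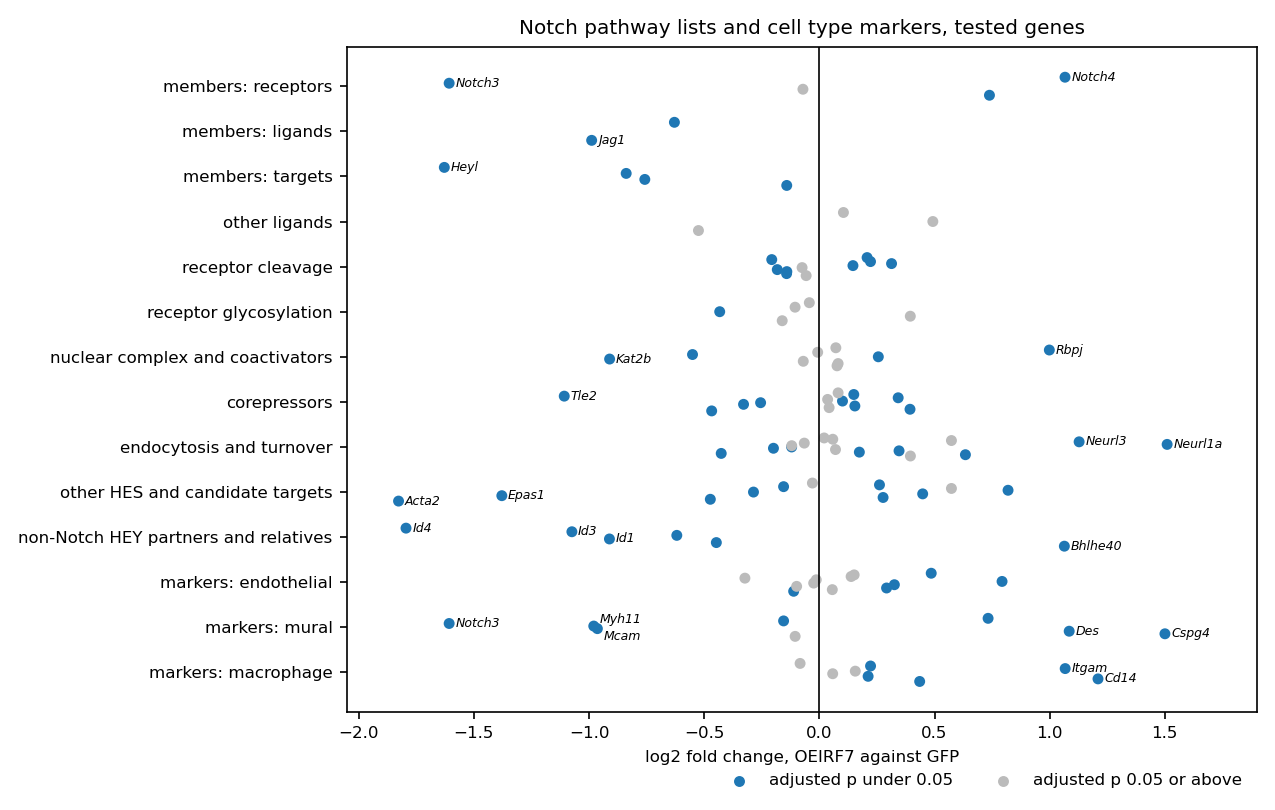
Log2 fold change between OEIRF7 and GFP (horizontal axis) of each tested gene (points) of the 10 Notch genes by role, of the other lists, the HEY relatives included, and of 3 lists of cell type markers. Points are blue where the adjusted p from edgeR was under 0.05 and grey otherwise, with names for the blue ones past a size of 0.85. Most lists spread to both sides of 0, and Acta2 and Id4 lie farther from 0 than any of the 10 Notch genes.

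Since Notch4 and Notch1 are best known from endothelial cells and Notch3 and Heyl from mural cells, markers of these types were read beside them. In bulk RNA, fewer cells of a type and less RNA per cell cannot be told apart. All 12 endothelial markers were tested, none was at 0, and 4 rose and 1 fell. Their sum was 265 to 278 CPM in GFP and 269 to 296 CPM in OEIRF7. Pecam1 was at 45.6 ± 2.46 and 45.2 ± 1.31 CPM (SD, n = 4; log2 fold change -0.01, edgeR adjusted p = 0.82) and Cdh5 at 100.4 ± 0.903 and 92.9 ± 5.36 CPM (SD, n = 4; log2 fold change -0.11, a call that passed in 8 of 16 alternatives), both endothelial junction genes. Kdr, a receptor for VEGF, rose from 6.50 to 11.3 CPM (log2 fold change 0.79), and Vwf, the von Willebrand factor gene, from 9.79 to 13.7 CPM (0.49). Emcn, the endomucin gene (31.2 and 38.2 CPM, 0.29), and Esam, a junction gene (8.02 and 10.03 CPM, 0.33, a call that passed in 12 of 16 alternatives), rose as well, and Cdh5 was the only marker of the list that fell. Notch4 was 2.09-fold higher in the same libraries.

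For the mural list, 8 of 10 markers were tested, Notch3 being 1 of them, with 3 higher and 4 lower, and Higd1b and Kcnj8 were near 0. The sum, most of it Pdgfrb, was 1466 to 1582 CPM in GFP and 1326 to 1478 CPM in OEIRF7. Cspg4 (22.4 and 63.3 CPM), Rgs5 (4.17 and 6.92 CPM) and Des (0.813 and 1.73 CPM) rose where Notch3 fell. Mcam (59.5 and 30.5 CPM), an adhesion molecule, Myh11 (3.47 and 1.76 CPM), smooth muscle myosin, and Pdgfrb (1413 and 1268 CPM) fell with it. Pdgfrb fell least of these (log2 fold change -0.16), and Abcc9 (0.790 and 0.733 CPM) did not pass (edgeR adjusted p = 0.80). All 8 myofibroblast markers were lower, against 29.9% of all genes, and 4 of them past 1.5-fold as well, against 9.64%. Their sums were 25024 to 26604 CPM in GFP and 20241 to 22384 CPM in OEIRF7. The smallest fall was that of Ccn2 (log2 fold change -0.14), a call that passed in 14 of 16 alternatives. Of 9 macrophage markers 8 were tested and 5 rose, with sums of 271 to 323 and 356 to 389 CPM, and of 7 epicardial markers tested 3 rose and 2 fell, with sums of 172 to 177 and 126 to 143 CPM. The part of these cell types in the values of the Notch genes was not tested.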

How the data were processed

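RNA was sequenced from 4 GFP and 4 OEIRF7 libraries of primary mouse cardiac fibroblasts. The authors trimmed paired-end reads with Trimmomatic, mapped them to GRCm38 with HISAT2 and counted them over genes with HTSeq-count. These counts were deposited without normalisation. The authors also deposited FPKM values from Cufflinks, rounded to hundredths. The deposited log2 fold changes, group means of FPKM and p-values come from the authors' test with DESeq and were not used. Tool versions and the strand setting of the counting are not given in the sources used here. For the library kit and RNA extraction the labels (SMARTER, RNeasy) and the methods (TruSeq Stranded mRNA, TRIzol) differ.

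Genes were joined by Ensembl identifier, of which 22219 of 22274 were found in GENCODE M21. In 121 symbols the letters GFP stood in place of others and were restored from M21, and 34 symbols were duplicated. Counts were filtered by filterByExpr, scaled by TMM and compared with glmQLFit and glmQLFTest without covariates in edgeR 4.0.16 (R 4.3.3), with Benjamini-Hochberg adjustment over 13533 genes. Log2 CPM for permutation tests used a prior count of 2. TMM factors lay between 0.989 and 1.01. The tests were tested on simulated data. The alternatives changed the tool (DESeq2 1.42.0), the scaling (none, or upper quartile), the filter (at least 1 count over all libraries, or at least 10 in each), the design (a block for the replicate number) or the libraries (each left out once), or used limma 3.58.1 on FPKM, with a pseudocount of 1 or 0.1 before taking log2 and a mean above 0.1 required, a scale on which the changes of low genes look smaller. For shares, CPM replaced FPKM. Motifs were counted in Python 3.11.15.

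The 10 genes and all lists were chosen with earlier results of these data known. From each pathway list up to 4 genes are named, those with an adjusted p under 0.05 and a mean of at least 1 CPM, in order of the size of the fold change, and Rbpj whatever its result. A result that this rule would name is not reported here. Marker lists are given by counts and sums. Genes named otherwise were chosen after their values were seen. Only RNA-seq was analysed here.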

Additional observations from a re-analysis of the deposited data

Results flagged for a closer look

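Each of the 10 genes was searched in each group of 4 libraries for a library far from the other three, 20 groups in all, of which chance alone would pick out about 1 in 20. In 2 groups a library stood apart. For Jag1 in OEIRF7, replicate 3 was the lowest, at 40.0 CPM beside 50.8 to 52.1 CPM, and the gap to its nearest neighbour was 0.892 of the range of the group. For Hey1 in GFP, replicate 3 was the highest, with 30 counts beside 17 to 19, and the gap was 0.893 of the range. Jag1 stayed lower in OEIRF7 without its library, and the call of Hey1 was lost without its own (log2 fold change -0.51, adjusted p = 0.20 from edgeR).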

How the results depend on the processing

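Over the 16 alternatives, 126 of 160 fold changes of the 10 genes kept their direction and their side of the threshold, 33 lost the threshold, all of Jag2, Hey1 or Hes1, 1 gained it (Notch2 without GFP replicate 3) and 0 reversed. The count of lower genes was 7 and became 4 with DESeq2, without scaling beyond library size, with limma on log2(FPKM + 1) and with limma on log2(FPKM + 0.1), and 4 to 6 when a library was left out. The cause of these losses was not tested. The 2 higher genes passed in every alternative. With the replicate block, 6 genes were lower, since Jag2 had -0.63 with an adjusted p of 0.056, and no other call of the 10 genes changed. The deviations of libraries with the same number correlated at 0.079, 0.095, 0.14 and 0.10, all positive. The labels give no order or batch, so the numbers were not taken as pairs in the main fit or the permutation tests. Each of the 8 libraries correlated best with the one of its own number, which is a hint from the data and not from the design. The share of Jag1 in the ligand sum, whose difference was -0.52 percentage points, ranged from -0.86 to 0.14 when a library was left out, the last without OEIRF7 replicate 1, in which Jag2 had its highest FPKM. That of Hey2 in the target sum ranged from -1.76 to -1.11, and passed without GFP replicate 4. The largest shift of the median of all genes between scalings was 0.029 against 0.0015. All genes called ranged from 3688 to 4346 higher and 3309 to 4154 lower. Hey1 and Jag2 rested on 10 to 35 counts per library.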
